A study of Saccharomyces cerevisiae with 6 samples.

Results

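The 3 nuclear RNA polymerases of budding yeast are built from 31 listed subunit genes, and 21 of these had transcripts in the 6 expression tables, which hold 2850 genes in all. Members were taken by systematic name, and the estimated counts of a gene were summed over its isoforms (140 isoforms for the 21 genes). The tables held 5 of 7 genes specific to polymerase I, 2 of 2 shared by I and III, 6 of 10 specific to III, 3 of 7 specific to II, and 5 of 5 shared by all 3 enzymes. The largest and second largest subunits of every enzyme (RPA190, RPA135, RPO21, RPB2, RPO31 and RET1) were not analysed here, and neither were RPB7, RPB9, RPC53 and RPC17.

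Cells carrying the [ESI+] state (3 cultures) were compared with naive cells (3 cultures). Both groups were diploids of the laboratory strain BY4743, labelled as biological replicates and grown without further treatment in YPD, a rich glucose medium, to an optical density of 0.5. [ESI+] is a prion-like state that cells inherit through a protein rather than a change of DNA sequence, and it has been linked to Snt1 of the Set3 histone deacetylase complex. Polyadenylated RNA of each culture as a whole was sequenced, so fewer cells with a transcript and less of it per cell cannot be told apart.

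RNA polymerase I makes the large ribosomal RNA precursor, polymerase II makes messenger RNA, and polymerase III makes transfer RNA, 5S ribosomal RNA and other small RNAs. Each enzyme has its own pair of large catalytic subunits, an alpha-like assembly platform, a stalk, and a core of small subunits that all 3 have in common. In growing yeast, polymerases I and III are major consumers of resources because their products serve ribosome production. Many of their subunit genes are known for an upstream element named PAC, after polymerases A and C, older names of I and III, and genes of ribosome assembly often carry it too.

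The PAC element divided the subunit genes along the lines of the enzymes. Its core, GATGAG, was searched on both strands of the 250 bases before the start codon in the R64 reference. It was found in 6 of 7 polymerase I genes, 2 of 2 genes shared by I and III and 8 of 10 polymerase III genes. It was found in 0 of 7 polymerase II genes and in 0 of 5 genes shared by all 3 enzymes. Of all 6001 nuclear coding genes with a full window, 17.0% held it. The extended form GCGATGAG, which contains the core, was present in 6 of the 31 genes and in 3.83% of all windows. AAATTTT, the core of an element named RRPE that often accompanies PAC, was present in 22 of the 31 genes and in 21.7% of all windows. It did not follow the same division, with 4 of 5 genes common to all enzymes and 2 of 7 polymerase II genes. In the other classes it was in 6 of 7 polymerase I genes, 2 of 2 shared by I and III and 8 of 10 polymerase III genes. Of the genes of polymerases I and III, RPA12, RPC17 and RPC11 had no core in the window.

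**Figure D1:**
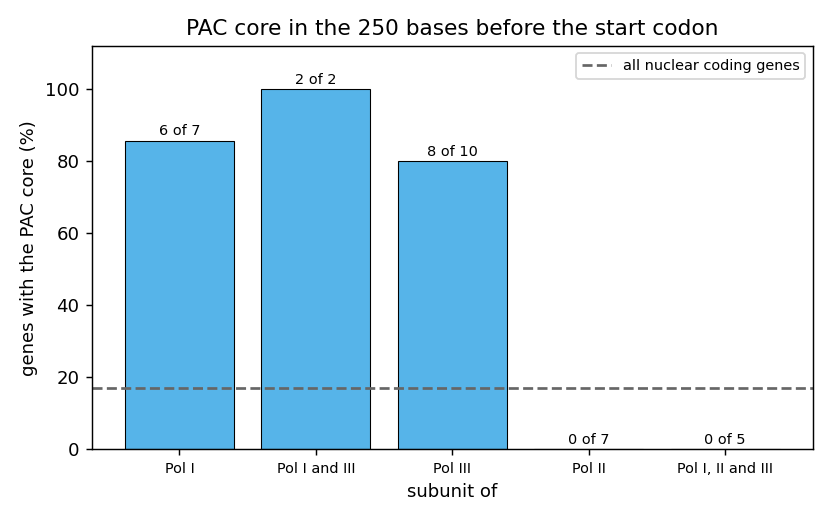
Share of subunit genes with the PAC core on either strand of the 250 bases before the start codon, by enzyme (bars, with counts of genes above), against the share over all nuclear coding genes (dashed line, 17.0%). The core was found in genes of polymerases I and III and in no gene of polymerase II or of the common core.

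These 8 stretches of 100 bases, read on the coding strand from the RefSeq R64 genome, show the core in genes of polymerase I, of the platform shared by I and III, and of polymerase III. Capitals mark the core in either direction. They lie at chrXV:960775-960874 (plus strand, RPA190), chrXVI:581246-581345 (minus, RPA135), chrXIV:182684-182783 (minus, RPA49), chrXVI:746864-746963 (minus, RPC40), chrXIV:412599-412698 (plus, RPC19), chrXV:733532-733631 (minus, RET1), chrXVI:919109-919208 (minus, RPC82) and chrXIV:635304-635403 (minus, RPC34).
RPA190: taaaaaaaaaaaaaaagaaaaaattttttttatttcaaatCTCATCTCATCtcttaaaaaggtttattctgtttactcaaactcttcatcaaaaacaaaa
RPA135: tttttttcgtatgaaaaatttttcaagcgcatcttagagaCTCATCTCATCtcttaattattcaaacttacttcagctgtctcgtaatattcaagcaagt
RPA49: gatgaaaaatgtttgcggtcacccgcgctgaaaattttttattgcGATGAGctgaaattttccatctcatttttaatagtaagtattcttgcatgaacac
RPC40: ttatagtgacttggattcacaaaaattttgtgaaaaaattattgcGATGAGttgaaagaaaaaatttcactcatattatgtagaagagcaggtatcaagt
RPC19: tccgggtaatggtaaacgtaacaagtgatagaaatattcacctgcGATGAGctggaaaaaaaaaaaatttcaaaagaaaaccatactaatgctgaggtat
RET1: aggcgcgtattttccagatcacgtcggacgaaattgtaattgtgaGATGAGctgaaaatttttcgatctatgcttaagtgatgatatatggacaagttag
RPC82: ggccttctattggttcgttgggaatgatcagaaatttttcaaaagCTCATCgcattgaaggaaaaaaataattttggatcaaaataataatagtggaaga
RPC34: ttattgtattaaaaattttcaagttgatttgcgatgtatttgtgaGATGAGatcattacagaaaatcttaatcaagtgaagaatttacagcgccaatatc

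The genes for the 2 largest subunits of polymerase I, RPA190 and RPA135, carried the core as an overlapping pair on the antisense strand. Its distal match began 172 bases before the start codon in RPA190 and 109 bases before it in RPA135. RPA49, RPC40, RPC19 and RPC82 are 4 of the 6 genes with the extended form, and their core began 130, 83, 127 and 122 bases before the start codon. A match of letters is a description and does not show that a factor binds there.

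The 6 libraries differed in depth and in evenness. Total estimated counts were 316485 to 3896490 in ESI+ libraries and 1080941 to 5934050 in naive libraries. The 100 most abundant genes held 51.6%, 28.3% and 41.8% of the counts in ESI+ replicates 1, 2 and 3, and 57.0% to 61.1% in the naive libraries. ESI+ replicate 2 stood apart, with a length-proportional background of 297 counts per kb (the 5th percentile over genes), against 32.6 and 1.99 in ESI+ replicates 1 and 3 and 7.26 to 55.1 in naive libraries. URA3, a uracil synthesis gene that this strain lacks by design, had 333 normalised CPM (counts scaled to the size of the library) in ESI+ replicate 3 and 255 in naive replicate 3, which goes against the strain label. The 21 subunit genes had 2365, 12014 and 834 counts in ESI+ replicates 1, 2 and 3 and 1618 to 8924 in naive libraries. They took 0.122%, 0.308% and 0.263% of all counts in ESI+ replicates 1, 2 and 3, and 0.150% to 0.163% in naive libraries. In ESI+ replicate 2 the counts of the 21 genes were 0.90 (RPC11) to 3.22 (RPB3) times the background for their length. RPB4 (0.98), RPA14 (1.04) and RPC10 (1.26) also lay close to that background, so low values in this library are not clear of it.

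Subunits common to all 3 enzymes had a higher median transcript level than those specific to polymerase I or III in 6 of 6 libraries. Levels between genes are given as TPM (transcript abundance scaled to a fixed total per library), which also takes account of transcript length. In ESI+ replicates 1, 2 and 3 the median over the 5 genes common to all enzymes was 129, 221 and 384 TPM, against 306, 192 and 142 TPM in naive replicates 1, 2 and 3. The 6 polymerase III genes had medians of 33.5, 159 and 59.95 TPM in the ESI+ libraries and 42.9, 32.8 and 44.7 TPM in the naive libraries. Polymerase III genes had the lowest median and polymerase I genes the next lowest in 6 of 6 libraries. The common genes had the highest median in 5 of 6 libraries, the exception being naive replicate 3, where the median of RPC40 and RPC19 was higher, at 177 TPM. These medians rest on 2 to 6 genes each and are descriptions.

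**Figure D2:**
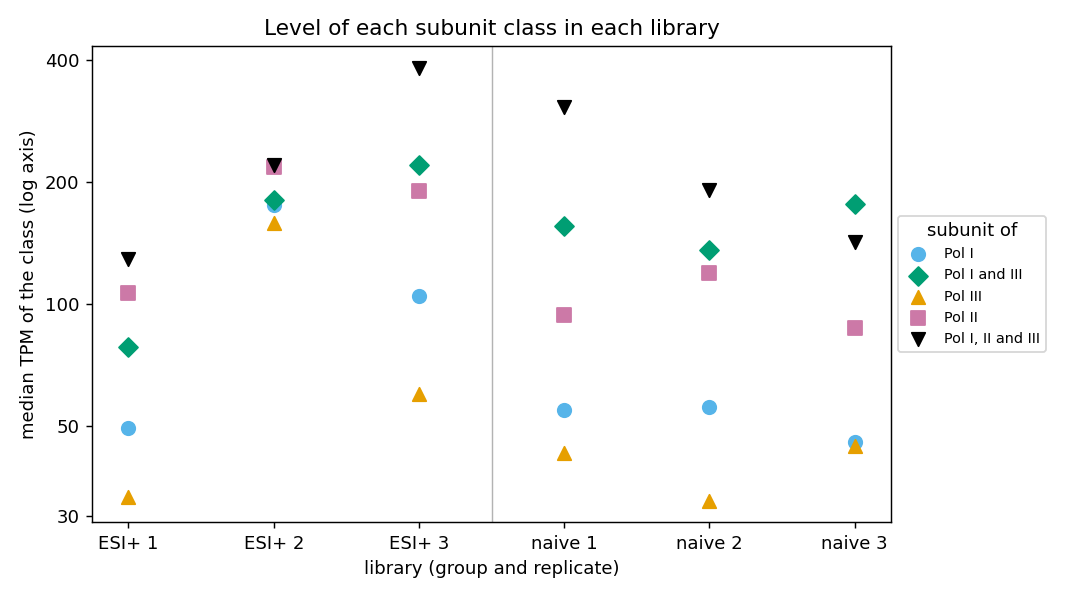
Median TPM (log axis) of the subunit genes of each class in each of the 6 libraries, one point per class, with ESI+ libraries on the left and naive libraries on the right. Polymerase III genes are lowest in every library, and the spread between classes is narrowest in ESI+ replicate 2, where medians run from 159 to 221 TPM.

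Among single genes, RPB10, a small zinc-binding subunit of all 3 enzymes, was the most abundant, with 280 ± 111 TPM in ESI+ and 352 ± 126 TPM in naive libraries (SD, n = 3 each). RPB8, another common subunit, followed with 267 ± 103 TPM in ESI+ and 292 ± 16.3 TPM in naive libraries. RPC82, of the polymerase III initiation heterotrimer, was the least abundant in naive cells, with 76.6 ± 106 TPM in ESI+ and 13.9 ± 1.34 TPM in naive libraries. When the 21 genes were ordered by their naive mean, 17 of the 20 pairs of neighbours overlapped in their naive replicates. The 3 that did not were RPB8 above RPC40, RPA49 above RPC31, and RPA43 above RPC82. The order of the 21 genes by TPM was alike in naive libraries, with Spearman's rho of 0.757 to 0.825 between them. Against the naive libraries, rho was 0.80 to 0.86 for ESI+ replicate 1, 0.462 to 0.647 for ESI+ replicate 3, and -0.018 to 0.104 for ESI+ replicate 2, where the highest subunit gene had 3.54 times the TPM of the lowest. The 21 points of each comparison share 2 libraries and are not independent.

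The comparison of ESI+ with naive cells addresses whether subunit transcripts differ with the inherited state. With edgeR's quasi-likelihood test over 2844 genes, 0 of the 21 subunit genes passed an adjusted p under 0.05 in either direction, where 6.26% of all tested genes were called higher and 1.65% lower. At an unadjusted p under 0.05 edgeR had 1 subunit gene lower (RPB10) and 0 higher, against 10.6% and 15.1% of all tested genes. DESeq2 called 0 subunit genes, where it called 241 of 2843 genes higher and 145 lower, and had 0 at that unadjusted p. At that p limma on log2 TPM plus 1 had 3 higher and 1 lower. Leaving out each library in turn in edgeR gave 0 to 5 higher and 0 to 5 lower. The shares of all genes at that p were not counted for these runs. In edgeR with all 6 libraries, the largest positive log2 fold change was that of RPC82, at 1.24, and the most negative that of RPA34, at -1.32. The smallest adjusted p was 0.189, for RPB10.

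**Figure D3:**
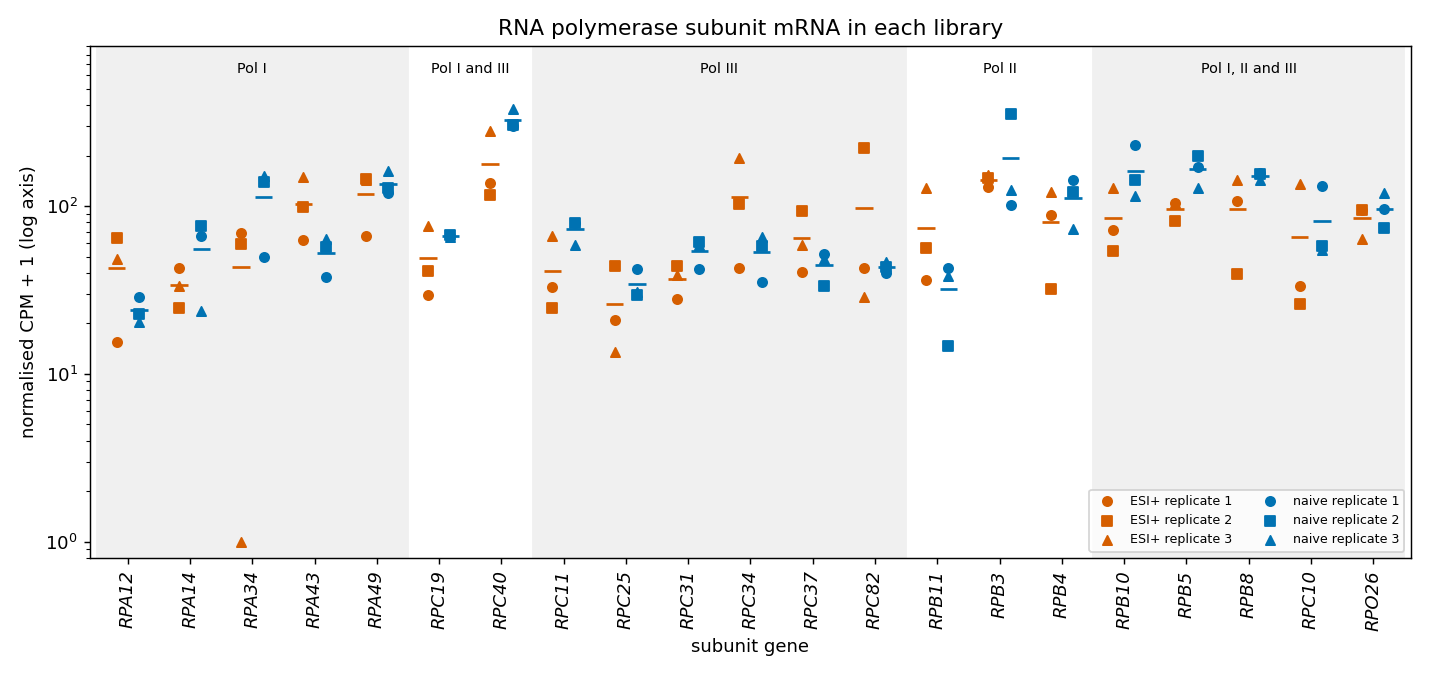
Normalised CPM plus 1 (log axis) of the 21 subunit genes in each library, by enzyme, with ESI+ libraries (orange) left of naive libraries (blue), marker shapes for replicates and bars for group means. In normalised CPM the groups overlap for 19 of the 21 genes, and RPA34 sits at 0 CPM in ESI+ replicate 3.

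The genes specific to polymerase I had no common direction. RPA43 (YOR340C, chromosome XV, 959202 to 960182), the stalk subunit that meets the initiation factor Rrn3, had 61.4, 97.8 and 148 normalised CPM in ESI+ replicates 1, 2 and 3, against 36.9, 55.7 and 63.0 in naive replicates 1, 2 and 3. ESI+ replicates 2 and 3 lay above all naive libraries and ESI+ replicate 1 just below the highest of them. On the log2 scale the difference was 0.96 (SE 0.52, adjusted p = 0.238 in edgeR). RPA34 (YJL148W, chromosome X, 140437 to 141138), which with RPA49 forms a dimer resembling TFIIF, had 68.4, 58.2 and 0 normalised CPM in ESI+ libraries, against 48.5, 138 and 151 in naive libraries.

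The value of 0 came from the shallowest library. A count of 0 there allows up to 3 counts, or 7.51 normalised CPM, and the naive mean of 113 normalised CPM would have given 44.96 counts at that depth. RPA34 was the subunit gene with no count in that library, where 78 of all genes had none, and its difference on the log2 scale was -1.32 (SE 0.71, adjusted p = 0.247 in edgeR), or -0.83 without ESI+ replicate 3. Its partner RPA49 had 65.1, 143 and 143 normalised CPM in ESI+ libraries and 118, 126 and 161 in naive libraries, so the pair did not share the low value. The stalk gene RPA14, whose coding span overlaps YDR157W so that reads can be shared, had a log2 fold change of -0.72, and RPA12, the RNA cleavage subunit, of 0.86.

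RPC40 and RPC19 encode the alpha-like pair on which polymerases I and III are assembled. RPC40 (YPR110C, chromosome XVI, 745828 to 746835) had 137, 116 and 278 normalised CPM in ESI+ libraries, against 300.5, 304 and 375 in naive libraries. All 3 ESI+ values lay below all 3 naive values, and the highest of them came close to the lowest naive one. On the log2 scale the difference was -0.91 (SE 0.47, adjusted p = 0.215 in edgeR). RPC19 (YNL113W, chromosome XIV, 412771 to 413199) had 28.5, 40.1 and 75.1 normalised CPM in ESI+ libraries, against 64.9, 66.5 and 64.5 in naive libraries. The naive libraries were nearly equal and ESI+ replicates 1 and 2 were below them, while ESI+ replicate 3 was above. The log2 difference was -0.49 (SE 0.56, adjusted p = 0.610 in edgeR).

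The 5 subunits common to all enzymes each had a negative log2 fold change, from -0.99 to -0.18, with a median of -0.69, where the median of all tested genes was 0.07. Without ESI+ replicate 2 their median was -0.29, that of the polymerase III genes -0.43 and that of all tested genes -0.04. None of the 5 passed. In TPM, where all genes had a median of 0.64, RPO26 and RPC10 turned positive but stayed below that median. RPB10 (YOR210W, chromosome XV, 738320 to 738532) had 70.5, 53.1 and 128 normalised CPM in ESI+ libraries, against 230, 141 and 114 in naive libraries. ESI+ replicate 3 overlapped the lowest naive library. On the log2 scale the difference was -0.99 (SE 0.48, adjusted p = 0.189 in edgeR), with an adjusted p of 0.0376 in edgeR without ESI+ replicate 3 and of 0.252 to 0.652 when any other library was left out.

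RPB5 was the other subunit gene whose groups did not overlap, with 103, 80.2 and 103 normalised CPM in ESI+ libraries and 169, 198 and 127 in naive libraries (log2 fold change -0.79, SE 0.44, adjusted p = 0.260 in edgeR). In all, 2 of 21 subunit genes had every ESI+ value below every naive value and 0 had every ESI+ value above, against 14.6% and 15.2% of all tested genes. In TPM the groups overlapped for RPC40 and RPB5, so 0 were below, and 1 was above, which was RPA43 with 49.6, 176 and 152 TPM in ESI+ libraries, against 27.7, 34.0 and 43.0 in naive libraries. Over all tested genes 3.69% were below and 29.6% above in TPM. RPO26 (YPR187W, chromosome XVI, 911257 to 911800), which encodes the Rpb6 subunit and has 2 coding exons, had 94.2, 94.1 and 62.6 normalised CPM in ESI+ libraries, against 94.4, 73.3 and 118 in naive libraries. The groups overlapped, with ESI+ replicate 3 the lowest library and naive replicate 3 the highest, and the log2 fold change of -0.18 had a 95% interval of -1.16 to 0.80.

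Of the polymerase II genes, RPB11 (YOL005C, chromosome XV, 315813 to 316175), part of the alpha-like pair of that enzyme, had 35.0, 55.5 and 128 normalised CPM in ESI+ libraries, against 42.0, 13.6 and 37.0 in naive libraries. ESI+ replicates 2 and 3 were above all naive libraries and ESI+ replicate 1 was within their range. On the log2 scale the difference was 1.16 (SE 0.62, adjusted p = 0.234 in edgeR), or 0.51 without ESI+ replicate 3. RPB3, the other subunit of the pair, had 128, 146 and 153 normalised CPM in ESI+ libraries and 101, 354 and 123 in naive libraries (log2 fold change -0.43), and it turned to 0.39 without naive replicate 2. RPB4 (YJL140W, chromosome X, 150961 to 151626), a stalk subunit, had 87.2, 31.1 and 120 normalised CPM in ESI+ libraries, against 142, 120 and 72.4 in naive libraries. The groups overlapped, with a log2 fold change of -0.52 (SE 0.52, adjusted p = 0.551 in edgeR), or -0.11 without ESI+ replicate 2. In that library the RPB4 counts were 0.98 times the background for its length.

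Polymerase III genes had 3 positive and 3 negative log2 fold changes, with a median of 0.10, or -0.43 without ESI+ replicate 2. RPC82 (YPR190C, chromosome XVI, 917077 to 919041), whose heterotrimer helps open the promoter, had 41.5, 221 and 27.5 normalised CPM in ESI+ libraries, against 38.8, 42.1 and 45.1 in naive libraries. A single library, ESI+ replicate 2, stood above the rest. The log2 difference was 1.24 (SE 0.61, adjusted p = 0.199 in edgeR), or 1.65 without ESI+ replicate 3 (adjusted p = 0.0149), and it turned to -0.24 without ESI+ replicate 2.

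RPC82 had the longest transcripts of the measured subunit genes, at 2107 bp. The background of ESI+ replicate 2 would give 626 counts over that length, against 1672 counts measured. In the naive libraries RPC82 had 1.54, 2.03 and 1.78 times the background of its library, so its level lay near the background in those as well. This background is a percentile over genes and not a separate measure of noise. With the background subtracted RPC82 kept 8.34, 1046 and 6.81 counts in ESI+ libraries, against 48.2, 15.7 and 90.8 in naive libraries. Its log2 fold change was then 2.50 (adjusted p = 0.295 in edgeR), and ESI+ replicate 2 held most of the counts left.

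RPC34, of the same heterotrimer, had 41.5, 101 and 193 normalised CPM in ESI+ libraries and 34.3, 57.0 and 64.3 in naive libraries (log2 fold change 1.08, SE 0.55, adjusted p = 0.210 in edgeR). ESI+ replicates 2 and 3 were above all naive libraries, and without ESI+ replicate 3 its log2 fold change was 0.47. RPC31, the remaining subunit of the heterotrimer, had -0.56, RPC37, which acts in termination and reinitiation, 0.54, and the stalk gene RPC25 -0.33. RPC11 (YDR045C, chromosome IV, 547978 to 548310), the RNA cleavage subunit, had 31.8, 23.8 and 65.1 normalised CPM in ESI+ libraries, against 78.0, 78.7 and 57.8 in naive libraries. ESI+ replicate 3 lay within the naive range and the others below it, and the log2 difference was -0.89 (SE 0.58, adjusted p = 0.327 in edgeR). In ESI+ replicate 2 the RPC11 counts were 0.90 times the background for its length, so that value was not above background.

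**Figure D4:**
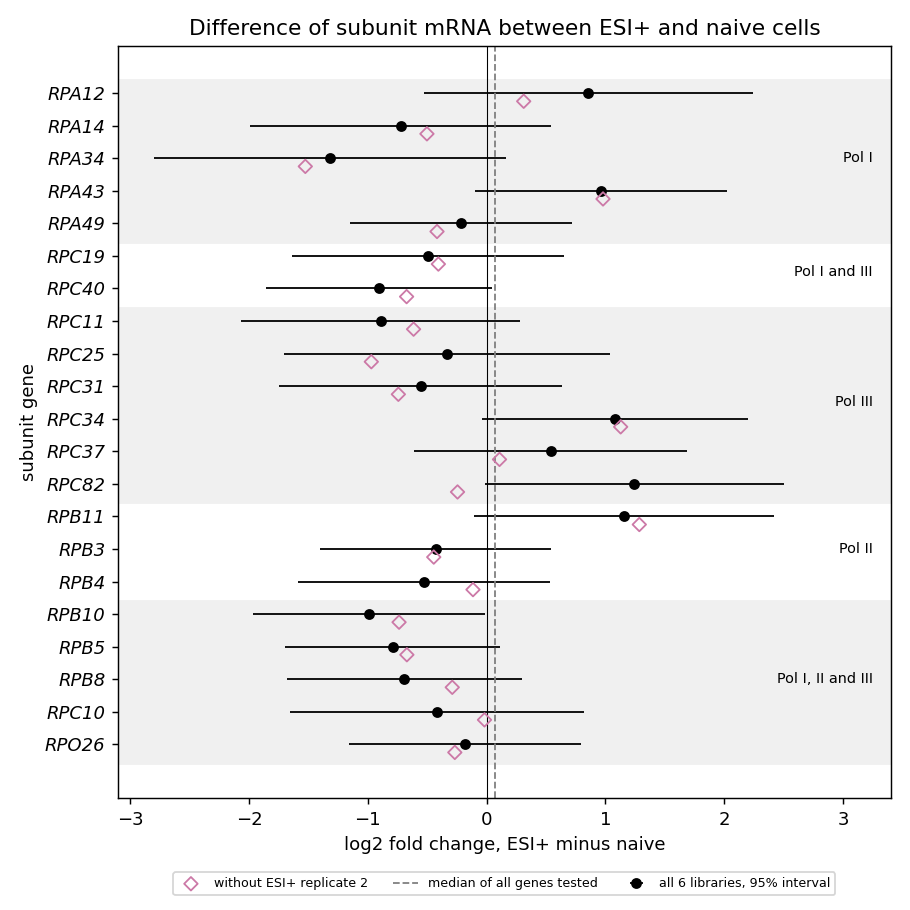
Log2 fold change (ESI+ minus naive) of each subunit gene with its 95% interval (black), the value without ESI+ replicate 2 (open diamonds) and the median of all tested genes (dashed line). For 20 of the 21 genes the interval includes 0, and RPC82 is the gene that changes sign without ESI+ replicate 2.

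Of the 21 log2 fold changes 15 were negative and 6 positive, with a median of -0.43, while 52.4% of all tested genes were positive. With TPM in limma 6 were negative and 15 lay below the median of all genes. The intervals were wide, and the upper bound of the fold for RPC82 was 5.67 and the lower bound for RPA34 was 0.144, so the absence of calls does not show that the subunits are unchanged. The 11 measured genes with the PAC core had a median log2 fold change of -0.33 and a median naive level of 48.2 TPM, and the 10 without it had -0.47 and 125 TPM.

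Factors that work with the polymerases gave 5 higher and 0 lower genes among 44 tested, from 5 lists of 86 genes, where 6.26% of all tested genes were called higher and 1.65% lower. At an unadjusted p under 0.05, 8 were higher and 2 lower, against 15.1% and 10.6% of all tested genes. Among initiation factors of polymerase I, 2 of 5 tested genes rose. RRN6, a core factor subunit at the ribosomal DNA promoter, had 67.8, 290 and 205 normalised CPM in ESI+ libraries, against 32.0, 27.2 and 33.8 in naive libraries (log2 fold change 2.59, SE 0.53, adjusted p = 0.00554 in edgeR). RRN11, of the same complex, had 36.6, 162 and 150.2 normalised CPM in ESI+ libraries, against 29.5, 35.3 and 20.9 in naive libraries (log2 fold change 2.04, SE 0.58, adjusted p = 0.0328 in edgeR). Both had all ESI+ values above all naive ones, as had 15.2% of all tested genes. For RRN11 the nearest values were 36.6 in ESI+ replicate 1 and 35.3 in naive replicate 2. HMO1, an HMG protein of ribosomal DNA, was the list's negative member, at -1.26 (adjusted p = 0.254 in edgeR), and the list's median was 1.78.

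In the list of 20 tested general factors of polymerase II, the TFIID subunit genes TAF8 (log2 fold change 2.08, SE 0.56, adjusted p = 0.0248 in edgeR) and TAF1 (1.79, SE 0.51, adjusted p = 0.0342) rose and the list's median was -0.13. BUD27, a prefoldin-like protein of polymerase assembly, also rose (log2 fold change 2.00, SE 0.61, adjusted p = 0.0432 in edgeR), among 4 tested genes with a median of -0.41. Polymerase III factors had 0 of 4 called, with the smallest p for TFC6 of TFIIIC (0.67, adjusted p = 0.497 in edgeR). Mediator had 0 of 11 called, with MED7 at 1.86 (adjusted p = 0.0972 in edgeR), and 1 gene had an unadjusted p under 0.05. RRN6 passed when any 1 library but ESI+ replicate 2 was left out, RRN11, TAF8, TAF1 and BUD27 did not pass without naive replicate 1 or 2, and of these 4 only TAF8 passed without naive replicate 3. Where a left-out naive library ended these calls, the log2 fold changes lay between 1.77 for TAF1 and 2.43 for BUD27, both without naive replicate 2, and the adjusted p-values of edgeR between 0.0547 and 0.149, both for BUD27. None of the 5 passed without ESI+ replicate 2, where RRN6, RRN11, TAF8, TAF1 and BUD27 had log2 fold changes of 2.09, 1.67, 1.59, 0.88 and 1.11. None passed in limma on log2 TPM plus 1 either, although their log2 fold changes were larger there, at 3.00, 2.46, 2.64, 2.20 and 2.39, where all genes had a median of 0.64. With length-proportional background subtracted none passed, and RRN11, TAF8, TAF1 and BUD27 had log2 fold changes of 3.84, 3.70, 3.69 and 4.35. ESI+ replicate 2 held most of the counts left for each of these 4. BUD27 kept 2.04, 624 and 19.1 counts in ESI+ libraries and 0, 9.95 and 0 in naive libraries. RRN11 kept 7.97, 680 and 56.3 counts in ESI+ libraries and 26.3, 12.6 and 0 in naive libraries. Those 2 folds rest on few naive counts. RRN6 then had 33.7, 1347 and 76.4 counts in ESI+ libraries and 0 in all naive libraries, so no fold is given for it. Whether factors differ from subunits in their response was not tested.

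A larger share of the counts of RPB11 was assigned to its longer isoforms in the ESI+ libraries, a difference that could not reach an exact p under 0.05 with 3 libraries a group. The tables list 29 isoforms of it, 23 of up to 517 bp and 6 of 677 to 758 bp. The long isoforms held 29.6%, 80.1% and 42.4% of its estimated counts in ESI+ replicates 1, 2 and 3, against 5.71%, 0% and 0% in naive replicates 1, 2 and 3. All ESI+ libraries were above all naive ones. How many of all genes were separated in this way was not counted. The mean share was 50.7% ± 26.2 in ESI+ and 1.90% ± 3.30 in naive libraries (SD, n = 3 each; two-sided exact permutation test, p = 0.1, the smallest p that this design allows). Depth was low, at 65, 419 and 51 counts in ESI+ libraries and 148, 10 and 170 in naive libraries. In ESI+ replicate 2 the counts of RPB11 were 2.32 times the background for its length, and the part of that background in the share was not tested.

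ESI+ replicate 2 also had its counts on the longest isoforms of most other subunit genes. Of the subunit genes with isoforms of different length and with counts, 15 of 19 had at least 99% of their counts on the longest in ESI+ replicate 2, against 4 of 19 and 3 of 18 in ESI+ replicates 1 and 3 and 1, 3 and 1 of 19 in naive replicates 1, 2 and 3. Over all such genes the share was 27.6%, 61.0% and 10.6% in ESI+ replicates 1, 2 and 3, against 12.2%, 9.45% and 11.5% in naive libraries. The high share in ESI+ replicate 2 extended over the whole library, and ESI+ replicate 1 had the next highest share over all such genes. The part of either in the RPB11 values was not tested.

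**Figure D5:**
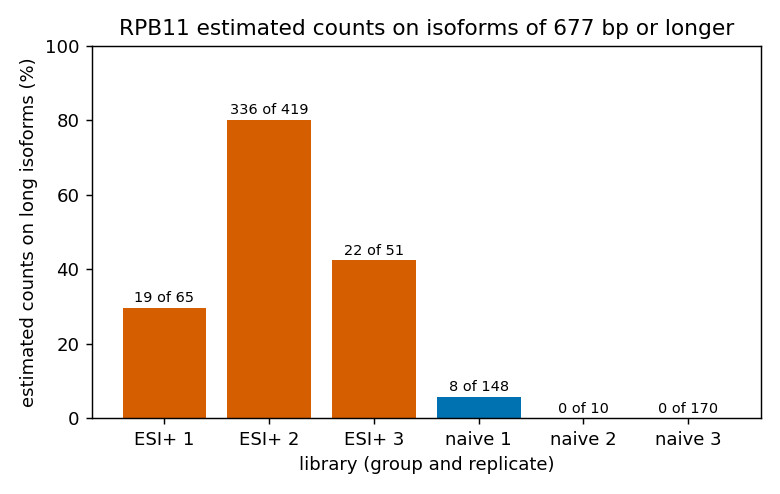
Share of RPB11 estimated counts assigned to its 6 isoforms of 677 to 758 bp in each library (bars, with counts on long isoforms of all RPB11 counts above), ESI+ in orange and naive in blue. The ESI+ libraries lie between 29.6% and 80.1% and the naive libraries between 0% and 5.71%.

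RPO26 and RPA12 are the other subunit genes whose isoforms fall into a short and a long set at least 60 bp apart. The single long isoform of RPO26, of 790 bp, held 90.3%, 61.0% and 100% of its counts in ESI+ libraries, against 98.2%, 100% and 98.7% in naive libraries (two-sided exact permutation test, p = 0.4). For RPA12 the long set held 100% in all 6 libraries. The split was chosen after some isoform values had been seen, and over the 3 genes the Benjamini-Hochberg adjusted p of RPB11 was 0.3.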

How the data were processed

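Polyadenylated RNA of 3 ESI+ and 3 naive cultures was quantified with kallisto 0.43.1 against build R64, per the submitters' processing notes. The deposited tables hold estimated counts and TPM for 17906 isoforms, per the file headers, with the TPM scaled by the authors' tool for length and depth. The program options, the strandedness of the libraries and the source of the isoforms are not given in the sources used here.

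Estimated counts were summed per gene and rounded. Genes were kept by edgeR's default filter (minimum count 10), scaled by TMM and tested by edgeR's quasi-likelihood test with robust estimation (edgeR 4.0.16, R 4.3.3), without a replicate block and with Benjamini-Hochberg adjustment over all 2844 genes at 0.05. DESeq2 1.42.0 and limma 3.58.1 served as alternatives. SE came from the fold change and F. The fits were tested on simulated counts with the same dispersion for all genes, a setting without the unevenness of ESI+ replicate 2. Of 2850 gene names, 2849 matched the R64 reference. Floors use 3 counts, and floors cover counting error only. Members, lists and rules were chosen with earlier results of these data known. Genes given by library were the large subunits where measured, the highest and lowest fold change of each class, and RRN6 and RRN11. From each other factor list, up to 3 called genes or the one of smallest p were given by their statistics only. RPA49, RPB3, RPB5, RPC34, RPB8, HMO1 and URA3 were named after their values were seen.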

Additional observations from a re-analysis of the deposited data

How the results depend on the processing

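The count of subunit genes called was 0 in each direction under every alternative run except without ESI+ replicate 3, and leaving out each library in turn gave 0 to 1 higher and 0 to 1 lower (RPC82 and RPB10). Over all genes the same set gave 2 to 331 higher and 0 to 87 lower, against 178 and 47, for the factor lists 0 to 9 higher, against 5, and for the polymerase II median -0.61 to 0.39. Ranges without 1 library included a change of sign for RPA49 (-0.42 to 0.13), RPB3 (-0.68 to 0.39), RPC10 (-1.50 to 0.20), RPC82 (-0.24 to 1.66) and RPO26 (-0.29 to 0.059). DESeq2 called 145 genes lower, an adjusted p under 0.01 left 41 higher and 1 lower with 1 factor gene, and edgeR without robust estimation, added after seeing the data, called 28 lower. With length-proportional background subtracted, 0 genes were called in either direction, 0 factor genes were called, the polymerase II median was -0.14 and RPO26 had 0.12. The replicate block called 67 higher, 25 lower and 1 factor gene (RRN6, with RRN11, TAF8, TAF1 and BUD27 at adjusted p of 0.0547 to 0.097 in edgeR), and same-numbered libraries did not deviate together over all genes (correlations -0.064, -0.21 and -0.041), although URA3 was high in both replicate 3 libraries, so the numbers were not taken to pair them.

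On log2 TPM the median of all genes was 0.64 with pseudocount 1 and 0.65 with 0.1. With pseudocount 1, and equally with no filter, 0 factor genes were called, medians were 0.49 (polymerase I), 0.52 (polymerase II) and 0.17 (all subunits), and RPA49 (0.49), RPA14 (0.080), RPC19 (0.13), RPB3 (0.52), RPB4 (0.090), RPO26 (0.61), RPC10 (0.030), RPC31 (0.18) and RPC25 (0.17) changed sign. With pseudocount 0.1, 96 genes were higher, 20 lower and 0 factor genes called, the medians were 0.49, 0.52 and 0.16, and the same genes had 0.49, 0.083, 0.13, 0.52, 0.091, 0.62, 0.029, 0.19 and 0.16. The cause was not tested. Depth limits ESI+ replicate 3 most, where 3 counts equal 7.51 normalised CPM.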

Other observations

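Across the 21 measured subunit genes, the deviation of log2 CPM from the naive mean was set against transcript length. Spearman's rho was 0.175, 0.469 and -0.129 in ESI+ replicates 1, 2 and 3, and -0.694, 0.175 and 0.435 in naive replicates 1, 2 and 3. The points of each value share a library and the naive mean, so these are descriptions.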
